A study of Mus musculus with 2 samples.

Results

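The genes described are those of the 3 long-known chains of collagen VI (Col6a1, Col6a2 and Col6a3) and of the fibril-associated collagens XII (Col12a1), XIV (Col14a1) and XVI (Col16a1). They were picked by gene name from the platform annotation, with earlier results of these data known, and comprise 6 of 18193 genes, with 12 of 45037 probe sets, each naming that gene alone. The study set rib chondrocytes of mice with a V156D knock-in of Matn1, the gene of the cartilage protein matrilin-1, against those of wild-type mice. Both groups were 5 days old, with 1 Affymetrix Mouse Genome 430 2 array each. The design text speaks of 5 littermates whose cells were pooled before the RNA was extracted, so each array is a pool. Whether 5 animals went into each pool, whether the mutation was carried on both alleles, the strain and the sex of the animals were not stated in the labels. The cells of both groups were released from dissected ribs with collagenase, and the labels name no further treatment. Rib preparations can also hold cells of the perichondrium, tendon and vessels.

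Collagen VI is built from 3 different chains that join as a heterotrimer, and its beaded filaments surround chondrocytes as part of the pericellular matrix. Its globular parts consist largely of von Willebrand factor A domains, the kind of domain that matrilins also carry, and matrilins can link collagen VI filaments, through the small proteoglycans biglycan and decorin, to other matrix networks. Collagens XII, XIV and XVI belong to the fibril-associated collagens with interrupted triple helices (FACITs). They sit on or beside collagen fibrils rather than forming fibrils themselves. Collagens XII and XIV are known from tendon, perichondrium and other dense connective tissue, and collagen XVI from cartilage and skin.

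The 3 chains of collagen VI had nearly equal ratios between the arrays by their brightest probe sets, and their promoters are shown because they are the genes of 1 trimer. RefSeq windows of GRCm38.p6, from 250 bases before to 50 bases after an annotated start, were found for 4 of the 6 genes, Col6a1, Col6a2, Col6a3 and Col16a1. Capitals mark matches on either strand to TATAAA (the TATA box), to CCAAT (the CCAAT box), to GGGCGG (the GC box) or to TGANTCA (the AP-1 motif). The windows are chr10:76725995-76726294 (minus strand) for Col6a1, chr10:76623355-76623654 (minus strand) for Col6a2 and chr1:90843922-90844221 (minus strand) for Col6a3.
Col6a1: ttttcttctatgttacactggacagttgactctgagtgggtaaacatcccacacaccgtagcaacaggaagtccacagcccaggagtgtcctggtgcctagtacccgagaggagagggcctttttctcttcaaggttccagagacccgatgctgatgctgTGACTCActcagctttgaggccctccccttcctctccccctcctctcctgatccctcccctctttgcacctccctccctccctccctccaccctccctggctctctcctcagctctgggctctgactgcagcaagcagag
Col6a2: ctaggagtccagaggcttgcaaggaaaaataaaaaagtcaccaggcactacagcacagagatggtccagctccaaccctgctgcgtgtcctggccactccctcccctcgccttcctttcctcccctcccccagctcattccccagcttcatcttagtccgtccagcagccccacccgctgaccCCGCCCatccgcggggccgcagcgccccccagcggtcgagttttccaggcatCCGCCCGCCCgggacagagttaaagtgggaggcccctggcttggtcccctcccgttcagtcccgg
Col6a3: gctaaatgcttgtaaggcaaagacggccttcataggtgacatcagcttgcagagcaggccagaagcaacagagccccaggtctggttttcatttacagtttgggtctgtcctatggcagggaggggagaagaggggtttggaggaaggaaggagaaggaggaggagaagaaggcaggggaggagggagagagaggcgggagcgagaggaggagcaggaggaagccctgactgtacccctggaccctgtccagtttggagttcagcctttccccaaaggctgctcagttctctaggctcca

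None of these 3 windows holds TATAAA or CCAAT, which 13.6% and 37.4% of all 32851 promoter windows hold. The Col6a1 window has 1 TGANTCA match, with its first base at position -90 from the annotated start, and 7.81% of all windows have this motif. The Col6a2 window has 3 GGGCGG matches, at positions -67, -15 and -11, the last 2 of which overlap, and 35.7% of all windows have it. A second window of Col6a2, at a start farther upstream and partly overlapping the first, holds 1 GGGCGG match and no other of these motifs. The Col6a3 window holds none of the 4 motifs. The Col16a1 window (chr4:130047590-130047889, plus strand) has 1 CCAAT and 2 GGGCGG matches, with a GC content of 74.3%, against a median of 52.7% over all windows. The GC content was 57.3% for Col6a1, 64.3% for this window of Col6a2 and 56.3% for Col6a3. A match describes these letters only. The arrays measured RNA level and not promoter use. Col6a1 and Col6a2 are neighbours among the protein-coding genes of chromosome 10 in RefSeq's GRCm38.p6, whereas Col6a3 lies on chromosome 1.

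All 6 genes gave higher signals in the mutant array, 5 of them by little and Col14a1 by 3.22-fold. Values are linear probe set intensities as deposited, and each gene is read from its brightest probe set (highest mean log2 signal). The signal floor was the median of the mean log2 signals of all probe sets, an intensity of 54.6, and all 6 genes and 9 of their 12 probe sets reached it. Each genotype has 1 array, hence neither replicate error nor a test, so the values compare 2 pools and cannot assign a difference to the genotype. Of 11329 genes at or above the floor, a log2 ratio (mutant over wild type) above 0 was found in 44.8%, a mutant signal of 2-fold or more above wild type in 0.653%, and of 2-fold or more below it in 0.256%. Among the 6 collagen genes the corresponding counts were 6, 1 and 0. The median log2 ratio of the 6 was 0.19, and that of all 11329 genes was -0.02. Without Col14a1 the median was 0.18.

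**Figure D1:**
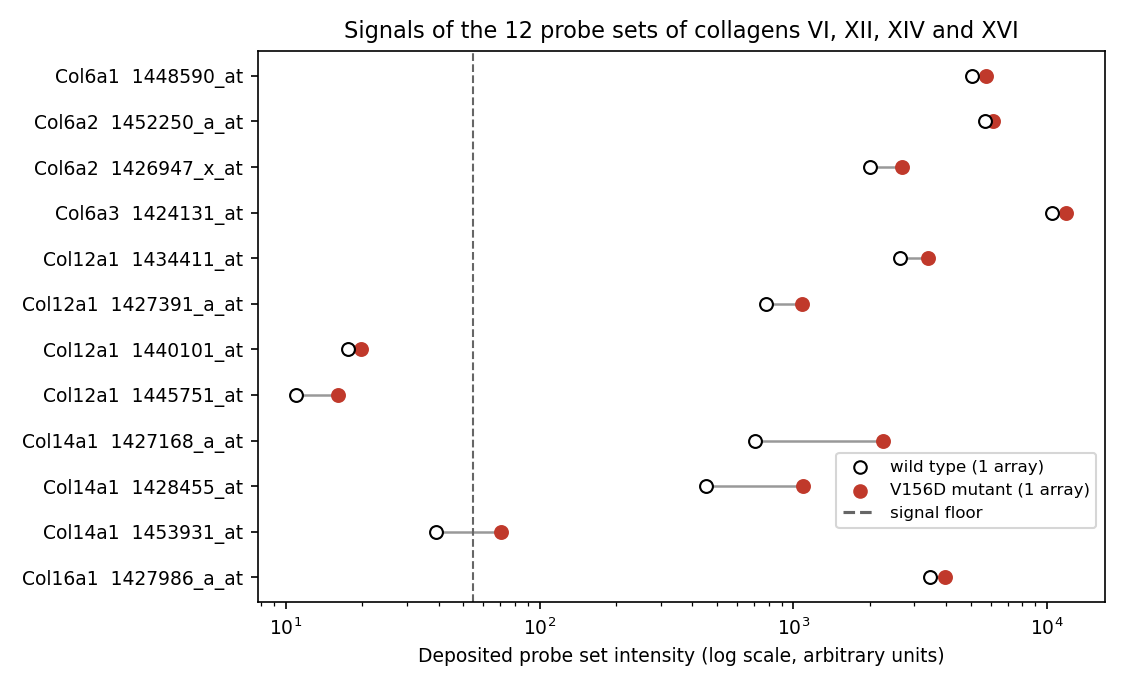
Deposited intensity (log axis, arbitrary units) of each of the 12 probe sets in the wild-type array (open circles) and the mutant array (red circles), with the signal floor as a dashed line. Each circle is 1 array, so there are no error bars. Every mutant value lies to the right of its wild-type value, with the widest gap for the brightest Col14a1 probe set, from 705 to 2266.

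Among the chains of collagen VI, Col6a1 encodes the alpha-1 chain, which pairs with the alpha-2 chain in each trimer. Its only probe set read 5081 in the wild-type array and 5753 in the mutant array. The mutant value was 1.13-fold that of wild type, a log2 ratio of 0.18.

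Col6a2, the alpha-2 chain gene, had readings of 5678 and 6117 on its brightest probe set, a log2 ratio of 0.11. Its other probe set, 1426947_x_at, of a class that may also match other transcripts, read 2006 and 2675, a log2 ratio of 0.41. The ratio of Col6a2 thus lay anywhere between 1.08-fold and 1.33-fold depending on the probe set, and the mean over both was 0.26 ± 0.22 (SD over probe sets, not over samples).

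Col6a3 encodes the alpha-3 chain, the longest of the 3, with many N-terminal von Willebrand factor A domains. On 1 probe set it read 10483 in the wild-type array and 11914 in the mutant array, a log2 ratio of 0.18. The ratios of the brightest probe sets of the 3 chains spanned 0.08 on the log2 scale, with a mean of 0.16 ± 0.04 (SD over the 3 genes). That span was narrower than the disagreement between probe sets of 1 gene, since the difference between the log2 ratios of a gene's 2 brightest probe sets had an SD of 0.26 over 4878 genes. By their brightest probe sets the ratios of the 3 chains thus differed by less than this SD, which covers genes of all signals that reached the floor. The other Col6a2 probe set, at 0.41, lay outside their span.

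The other chain genes of collagen VI gave little signal. Col6a4 read 37.3 and 36.8 (wild type, then mutant) and Col6a5 7.35 and 6.69, all below the floor, so no ratio is drawn from them. Col6a6 was not analysed here. Signal of collagen VI on these arrays was thus read from Col6a1, Col6a2 and Col6a3.

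Col16a1, a FACIT that associates with thin collagen fibrils in cartilage, read 3467 in the wild-type array and 3949 in the mutant array. The log2 ratio of its only probe set was 0.19, next to those of Col6a1 and Col6a3.

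Col12a1, a FACIT of dense connective tissue with long arms of fibronectin type III repeats, had the second highest ratio of the 6 genes. Its brightest probe set read 2641 in the wild-type array and 3393 in the mutant array, and 1427391_a_at read 782 and 1086. The log2 ratios were 0.36 and 0.47, a mean of 0.42 ± 0.08 (SD over these 2 probe sets). The other 2 probe sets of Col12a1 lay below the floor, with 17.5 and 19.8 on 1440101_at and 11.0 and 16.1 on 1445751_at. Both were also higher in the mutant array, at signals where a ratio carries little weight. Col12a1 missed 1.5-fold on all 4 probe sets, so that 1 of the 6 genes, Col14a1, was at least 1.5-fold higher, against 1.7% of all genes.

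Col14a1, the closest relative of Col12a1 among these collagens, was the member that differed most. Its brightest probe set, 1427168_a_at, read 705 in the wild-type array and 2266 in the mutant array, a log2 ratio of 1.69. A second probe set, 1428455_at, read 454 and 1094, a log2 ratio of 1.27 or 2.41-fold. The third, 1453931_at, read 38.9 in the wild-type array and 70.8 in the mutant array, with a mean signal below the floor and a log2 ratio of 0.86. The 3 probe sets thus shared a direction and differed in size, with a mean of 1.27 ± 0.41 (SD over probe sets). Over the 2 at or above the floor the mean was 1.48 ± 0.29. By its brightest probe set Col14a1 ranked 14 from the top among 11329 genes, and 0.115% of these genes had a higher ratio. At least 3-fold higher were 0.141% of all genes, Col14a1 among them by this probe set alone. Of the 9 probe sets of the 6 genes at or above the floor, 2 were at least 2-fold higher, both of Col14a1, against 0.622% of all 19445 such probe sets. All 9 had ratios above 0, against 45.3% of those probe sets.

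**Figure D2:**
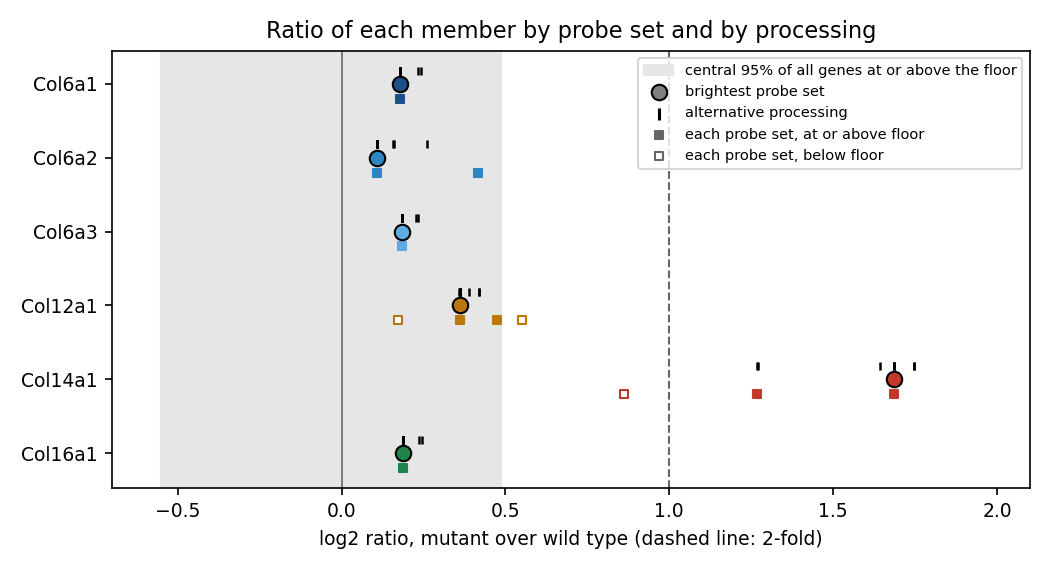
Log2 ratio of mutant over wild type for each gene. Large circles show the brightest probe set, ticks above them the same gene under the alternative processing settings, and squares below them each probe set (open where its mean signal was below the floor), with the central 95% of all genes at or above the floor in grey (-0.55 to 0.49) and 2-fold as a dashed line. Col14a1 lies beyond the grey band on all 3 probe sets, 1 of them below the floor, and the circles of the other 5 genes lie within it. A square of Col12a1 below the floor (0.55 on 1445751_at) also lies beyond the band.

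In order of log2 ratio the genes ran from Col6a2 (0.11) through Col6a1 and Col6a3 (both 0.18), Col16a1 (0.19) and Col12a1 (0.36) to Col14a1 (1.69). Neighbours from Col6a2 to Col12a1 differed by less than 0.26, the SD between probe sets of 1 gene over genes of all signals that reached the floor. Col14a1 stood 1.32 above Col12a1 on the log2 scale. The central 95% of ratios of all genes at or above the floor ran from -0.55 to 0.49, with an SD of 0.27, and held 5 of the 6 genes.

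Ratios scattered less at high signal, where all the genes but Col14a1 lay. Of 473 genes whose mean log2 signal was at least that of Col12a1, a limit picked with the values in view, the central 95% ran from -0.49 to 0.28. Of these 473 genes, 42.3% had ratios above 0 and 15.4% had ratios at or above that of Col6a2. Ratios at or above that of Col6a1 were found in 6.77%, and at or above that of Col12a1 in 2.11%. By this limit Col12a1 was the dimmest of the 473, and no range was drawn from genes of like signal on both sides. Col12a1 lay outside the central range of this set, and the 3 collagen VI chains and Col16a1 lay within it. These shares describe 1 pair of arrays.

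**Figure D3:**
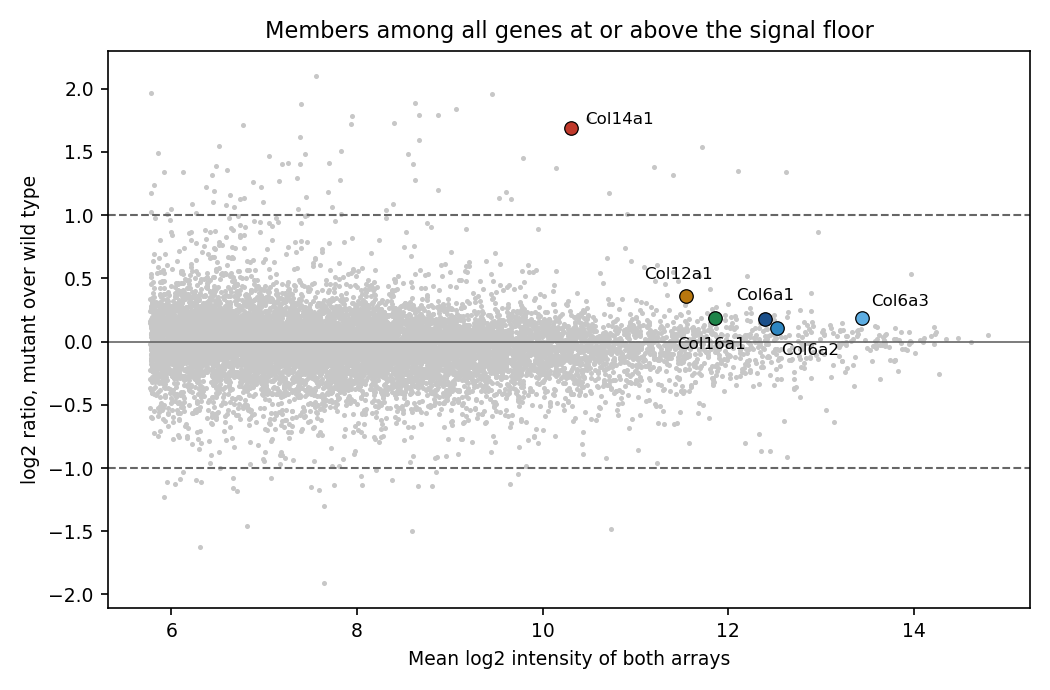
Log2 ratio of mutant over wild type against mean log2 intensity of both arrays for 11329 genes at or above the signal floor (grey points), with the 6 collagen genes coloured and dashed lines at 2-fold. The grey points narrow toward high signal, where 5 of the 6 collagen genes lie just above 0, while Col14a1 lies at 1.69.

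The genes nearest to Col14a1 in both arrays were 2 thrombospondins. Likeness was the distance between log2 signals over the 2 arrays, among 8987 genes with 1 sign across their probe sets that reached the floor. Thbs4, a thrombospondin of tendon, was nearest at a distance of 0.27, with 782 and 2646 (wild type, then mutant). Thbs2, a thrombospondin of connective tissue, followed at 0.31, with 706 and 1824. With 2 arrays this measure reflects signal and ratio only, and Thbs4 also stands on the list of fibroblast and tendon markers.

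Among the fibrillar collagens that FACITs associate with, genes known from fibrous tissue had higher ratios than the main genes of cartilage fibrils. Of 8 genes at or above the floor, all had ratios above 0, against 44.8% of all genes. At least 2-fold higher were 2 of them, against 0.653%, and the median log2 ratio was 0.57, against -0.02 over all genes. The median was 0.92 without probe sets ending in _s_at, _x_at or _a_at. Col1a1, a chain of the main collagen of bone, tendon and skin, read 2759 and 7010, a log2 ratio of 1.35. Col5a2, a chain of the collagen V that is found within collagen I fibrils, read 1716 and 4268, a log2 ratio of 1.31. In contrast Col2a1, the main cartilage collagen, had a log2 ratio of 0.05 and Col11a1, its partner in cartilage fibrils, 0.02, the lowest of the list. The ratio of Col14a1 exceeded that of Col2a1 by 1.63 on the log2 scale. Its order against Col1a1 was not settled, at 1.69 against 1.35 by the brightest probe sets and 1.27 against 1.38 as means over all probe sets. Over probe sets at or above the floor the means were 1.48 and 1.38. These are values of genes with different probe sets, and the differences were not tested.

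Among the remaining FACIT genes, 5 lay at or above the floor, with a median log2 ratio of -0.01, or 0.03 after loess. Col22a1, a collagen of tissue junctions such as that of muscle and tendon, read 118 in the wild-type array and 260 in the mutant array, 2.21-fold higher, but its 3 probe sets ranged from 0.39 to 1.14 on the log2 scale. Col9a2, a chain of the cartilage FACIT collagen IX, was lowest at -0.35, from 4897 to 3852. The ratios of the FACIT genes thus ran from -0.35 for Col9a2 to 1.69 for Col14a1.

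Matrix proteins known to bind these collagens or to lie beside them showed mostly small ratios. All 16 genes reached the floor, and the median log2 ratio was 0.06. The log2 ratios were positive for 11 and negative for 5, while 44.8% of all genes were above 0. At least 2-fold higher were 2 of the 16, against 0.653% of all genes. Col4a1, a basement membrane collagen chain, was highest at 1.45, from 532 to 1459. Tnc, the tenascin of tendon and perichondrium, read 549 and 1198 on its brightest probe set, 2.18-fold, while its other probe set gave -0.07, so its direction was not settled. Matn2, a matrilin of soft connective tissue, was lowest at -0.17, with 0.23 on its other probe set. Matn1, the mutated gene, read 4373 and 4340.

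Cell surface receptors for collagens had a median ratio near the ratios of the collagen VI chains, but single receptors ran from -0.58 to 0.56. Of 9 genes that reached the floor 8 were above 0, against 44.8% of all genes, and the median was 0.13. None differed 2-fold by its brightest probe set, against 0.909% of all genes. Antxr1, a receptor with a von Willebrand factor A domain that binds collagen VI, was highest at 0.56, from 799 to 1182, and its 2 probe sets gave 0.18 and 0.56. Cd44, the hyaluronan receptor, was lowest at -0.58, from 1897 to 1272, and another of its probe sets was at least 2-fold lower.

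Genes of collagen biosynthesis were close to equal in both arrays. Of 14 genes 10 had ratios above 0, against 44.8% of all genes, and the median was 0.07. None differed 2-fold or 1.5-fold, against 0.909% and 3.72% of all genes. Serpinh1, the collagen chaperone HSP47, was lowest at -0.29, from 8430 to 6915, and Bmp1, the procollagen C-proteinase, highest at 0.24, from 325 to 383. Of 11 genes of the TGF-beta pathway, which is known to act on collagen genes of fibroblasts, 7 had ratios above 0. That compares with 44.8% of all genes. None of the 11 differed 2-fold, and their median was 0.13. Ltbp2, a latent TGF-beta binding protein family member, was highest at 0.76, from 301 to 509, and Tgfbr1, a receptor, lowest at -0.10.

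Vessel and fibrous tissue markers were mostly higher in the mutant array, as Col14a1 was. Of 17 fibroblast and tendon markers, 16 lay at or above the floor, with a median log2 ratio of 1.01. Of these 15 had a ratio above 0, against 44.8% of all genes, and 8 were at least 2-fold higher, against 0.653%. The summed intensity of all 17 was 39424 in the wild-type array and 67803 in the mutant array. Kera, the keratocan of tendon and cornea, was highest at 1.79, and Tnmd, the tenomodulin that marks tendon cells, read 1977 and 5744. Pdgfra, a receptor of mesenchymal cells, was lowest at -0.10. The list shares Col1a1, Col1a2 and Col3a1 with the fibrillar collagens.

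Of 10 endothelial markers, 7 lay at or above the floor. Of these 6 were higher, against 44.8% of all genes, and 3 at least 2-fold, against 0.653%. The median log2 ratio was 0.94, and 0.97 over all 10. Summed intensity over all 10 was 848 and 1275. Cdh5, the cadherin of vessel walls, read 55.1, close to the floor of 54.6, and 144. The floor is set on the mean of both arrays, and Emcn, also at least 2-fold higher, read 38.2 and 96.4. Egfl7 was lowest at -0.19, with up to 0.38 on its other probe sets. Of 8 mural cell markers, 6 lay at or above the floor, with a median of 0.24. Over all 8 the summed intensities were 3914 and 4629. Rgs5, a pericyte marker, read 224 and 626, and Tagln was lowest at -0.09. Of 10 skeletal muscle markers 4 reached the floor. All 4 had ratios below 0 and none differed 2-fold, from -0.74 for Myod1 to -0.02 for Ckm. The muscle median was -0.46 over these 4 and -0.04 over all 10. Summed intensities over all 10 were 2565 and 1903.

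The chondrocyte markers had nearly the same summed intensity in both arrays, 138337 and 138353. All 12 lay at or above the floor, with a median log2 ratio of 0.03 and none at 2-fold, from Ucma at -0.38 to Chad at 0.07. Acan, the main cartilage proteoglycan, had 0.06. The defining markers of the labelled cell type were thus present in both arrays, as were markers of fibrous tissue. In a bulk sample a different share of cells of a type and a different RNA level per cell cannot be told apart. The part of fibroblast, tendon or vessel cells in the ratios of Col14a1, Col12a1 and the collagen VI chains was not tested.

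Of 10 genes that respond to cell release, none differed 2-fold and 1 was at least 1.5-fold lower. All 10 had ratios below 0, while 44.8% of all genes were above 0, with a median of -0.22 and summed intensities of 100663 and 87238. Dnajb1, a heat shock co-chaperone, was lowest at -0.64. Sex-linked transcripts differed as well, since Xist read 7755 and 5006 and the Y-linked Eif2s3y 230 and 490. The make-up of the pools by sex and by genotype cannot be told apart.

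**Figure D4:**
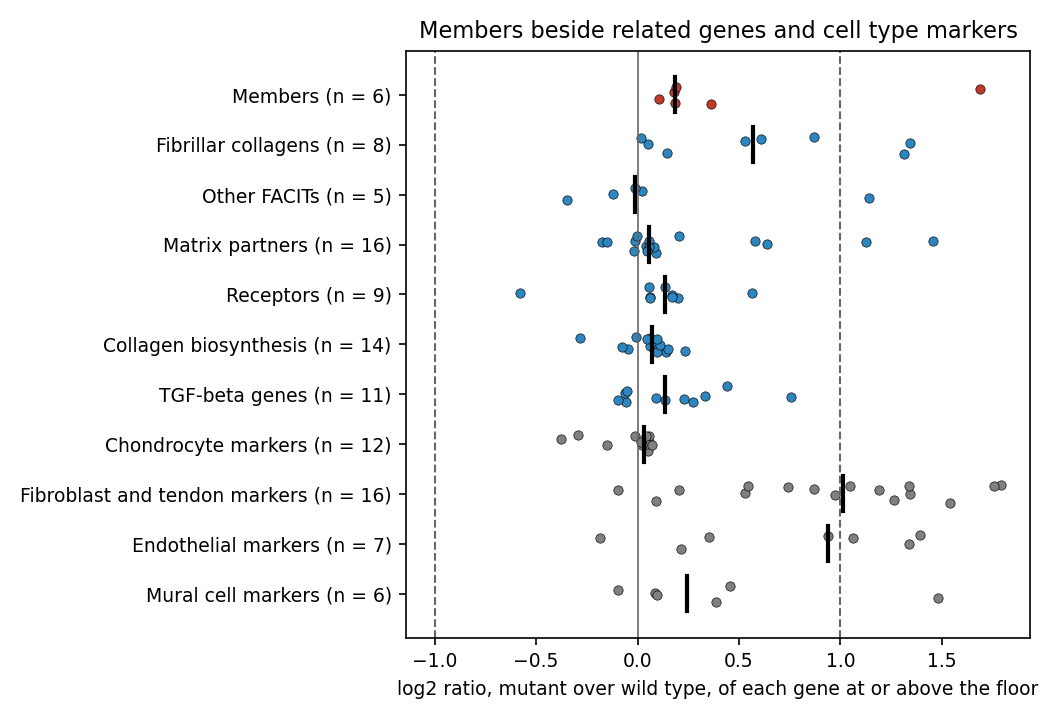
Log2 ratio of mutant over wild type of each gene at or above the floor (points) for the 6 collagen genes (red), related gene lists (blue) and cell type markers (grey), with the median of each list as a black bar and 2-fold as dashed lines. The fibroblast and tendon markers centre on 1.01 and the chondrocyte markers on 0.03. Of the 6 collagen genes 5 lie between 0.11 and 0.36 and Col14a1 at 1.69.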

How the data were processed

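RNA from pooled rib chondrocytes was measured on 2 arrays, 1 wild type and 1 mutant, from 6 µg of total RNA each, per the labels' protocols. The authors deposited 1 linear intensity per probe set and array. MAS5 is named in the submitters' processing notes. Its version and settings and the scaling were not stated in the labels. It is thus unknown whether the arrays were scaled together. The number of arrays limits the precision.

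Probe sets were named from the platform annotation, with 34945 naming 1 gene, 932 several and 9160 unnamed here. Of the 34945, 34741 were found by Entrez identifier in RefSeq's GRCm38.p6, and 0 changed name. No probe set that names several genes names a member. The log2 of each value was used without further normalization. Genes were counted at 2-fold, and there was no test. The members and the 18 lists (7 of related genes, 11 of markers or cell release) were chosen with earlier results of these data known. Beyond the members, named genes are those of each list at least 2-fold different or with its highest or lowest ratio at or above the floor, set chondrocyte markers (Col2a1, Acan, Matn1), the other collagen VI chains, and for Col14a1 the 2 nearest genes. Xist, Eif2s3y and the probe sets of Col1a1, Col1a2, Col3a1, Col4a1, Col5a2, Col22a1 and Lum were added with their values known.

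Alternatives were median centring, quantile normalization, loess (span 0.3), an offset of 32, the mean over probe sets, leaving out probe sets ending in _s_at, _x_at or _a_at, floors at percentiles 40 and 60 or none, and thresholds of 1.5-fold and 3-fold. A log2 value was counted as moved beyond 0.26, the SD between probe sets of a gene, and a count when it changed by more than 1.5-fold. The scripts were tested on simulated data (Python 3.11.15, numpy 2.4.6, pandas 2.3.3, statsmodels 0.14.6).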

Additional observations from a re-analysis of the deposited data

How the results depend on the processing

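Under 9 other settings of normalization, probe set choice and floor, each of the 6 genes stayed higher in the mutant array in every setting that gave it a value. The floor settings cannot change the ratio of a gene and bear on medians and counts only. Median centring left each ratio nearly unchanged. Col6a2 and Col16a1 had no value without probe sets ending in _s_at, _x_at or _a_at. The median log2 ratio of the genes measured ranged from 0.19 to 0.27, and the count of genes at least 2-fold different was 1 throughout, also at 1.5-fold and 3-fold. The count of probe sets at least 2-fold different, 2, was 1 without probe sets of those classes, where 4 of the 9 were left, and 1 at 3-fold. Col14a1 ranged from 1.27, without those classes or as the mean over its probe sets, to 1.75 after loess. The fibrillar collagen median was 0.92 without those classes, and the endothelial median, 0.94, was 0.65 with the floor at percentile 60 or with probe sets averaged. Medians near 0 changed sign for the other FACITs (-0.09 to 0.03) and the macrophage markers (-0.17 to 0.09), and that of the osteoclast markers was 0.43 without those classes. Without a floor the muscle median of -0.46 was -0.04 and the adipocyte median of 0.99 was 0.37. Of 235 values recomputed 10 moved, and no value of at least 2-fold changed sign. No paired analysis was possible because there is 1 array per genotype.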

Other observations

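Several collagen genes gave smaller ratios on their brighter probe sets, and others did not. Col3a1, a fibrillar collagen of soft tissue, had a log2 ratio of 0.87 on the probe set reading 5954 and 10873, and of 1.71 on the one reading 647 and 2113. Col1a2, the second chain of collagen I, had 0.53, 0.92 and 1.40 on probe sets with wild-type readings of 13342, 5179 and 103. Col6a2 showed the same order, with 0.11 on the brighter and 0.41 on the dimmer probe set, and so did Col12a1, with 0.36 and 0.47 at or above the floor. Col14a1 had the reverse order, with 1.69 on its brightest probe set and 1.27 and 0.86 on the others. Col22a1 also gave its highest ratio on its brightest probe set, with 1.14 against 0.39 and 1.02. The same held by little for Col5a2, with 1.31 and 1.28, and for Col4a1, with 1.45 and 1.43. Over all 63 genes with 2 or more probe sets that reached the floor and a mean ratio of at least 1.5-fold higher, the brightest probe set gave the smaller ratio in 23. The order was thus not general over these genes. Among them, 3 had a brightest probe set at a log2 signal of 12 or more, and these were Col1a1, Col1a2 and Col3a1. In all 3 the brightest probe set gave the smaller ratio, for Col1a1 with 1.35 against 1.41. As Col1a2 and Col3a1 are the examples above, this count is not separate from them. The collagen genes named here were picked with their values in view, and the order was not tested.

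Lum, the lumican of tendon and other fibrous tissue, was nearly level at 9183 and 9772, a log2 ratio of 0.09, although most other fibroblast and tendon markers were higher in the mutant array. The remaining marker lists had few genes at or above the floor. The 2 osteoblast markers at or above the floor had a median of 0.17, the 5 macrophage and blood markers 0.01, the 3 osteoclast markers -0.27, the 1 erythroid marker 0.31 and the 2 adipocyte markers 0.99. Ctsk, a collagen-degrading protease on the osteoclast list, read 498 and 1095, while Acp5 of the same list read 218 and 149. Lpl, a lipase on the adipocyte list, read 253 and 613.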
